A study of Mus musculus with 8 samples.

Results

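Transcripts of 10 effector and helper cytokines were measured in single T cells from the pancreas of NOD mice, which become diabetic through autoimmune attack on their beta cells. The 10 genes, Ifng, Tnf, Il2, Il21, Il4, Il10, Il17a, Lta, Ltb and Tgfb1, were taken by symbol from the 32285 features of the deposited matrices, and no measured value was used to choose them. A T cell had at least 2 UMIs (unique molecular identifiers, each counting 1 captured transcript) over Cd3d, Cd3e, Cd3g, Trac, Trbc1 and Trbc2. CD4-gated cells had a UMI of Cd4 and none of Cd8a or Cd8b1, CD8-gated cells the reverse, and Foxp3-positive cells at least 1 UMI of Foxp3, in or out of the CD4 gate. After quality filters 70024 T cells remained, of which 27399 were CD4-gated, 21876 CD8-gated and 2554 Foxp3-positive.

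The 8 libraries fell into 4 groups. Untreated mice gave 1 library in active diabetes, defined by more than 600 mg/dl of blood glucose, and 1 at onset, defined by 250 mg/dl, both harvested on day 1. New-onset mice gave the other 6: 3 libraries after PPCA, daily nutlin-3 at 50 mg/kg (an MDM2 inhibitor that raises p53) with MK-1775 at 25 mg/kg (an inhibitor of the cell cycle kinase Wee1), and 3 after the vehicle of ethanol, Tween 20 and PEG300. The names give 1 vehicle and 1 PPCA library for each of days 2, 3 and 4, and how these days map onto the 1 to 3 days of treatment is not stated. All mice were labelled female, with an age of 3 to 5 months in one label and 3 to 4 months in another, and all cells were sorted as CD45+ CD3+ TCRβ+ and frozen before capture. The number of mice per library is not stated, so p-values over libraries measure the spread between libraries, which may be technical.

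T cell cytokines are secreted on antigen recognition, when calcium signalling brings NFAT proteins to cytokine promoters, and their transcripts are short-lived. Helper T cells are classed by the cytokines they make: interferon-γ for type 1 cells, interleukin-4 for type 2, interleukin-17A for type 17 and interleukin-21 for follicular helper cells. In the islets of diabetic NOD mice, CD8 T cells kill beta cells, CD4 T cells give help, and Foxp3-expressing regulatory T cells restrain both.

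Promoter sequences are shown for Ifng and for 3 members that were higher in CD4-gated cells with an Ifng UMI, Tnf, Il2 and Il21. RefSeq windows (GRCm38.p6) of the 250 bases before the transcription start were found for 9 of the 10 genes, all but Il10. The printed windows are Ifng, chr10:118440796-118441045 on the plus strand, Tnf, chr17:35202008-35202257 on the minus strand, Il2, chr3:37125955-37126204 on the minus strand, and Il21, chr3:37232637-37232886 on the minus strand, all written 5′ to 3′ toward the gene. Capitals mark the core that NFAT proteins bind, GGAAA or its reverse complement TTTCC.
Ifng: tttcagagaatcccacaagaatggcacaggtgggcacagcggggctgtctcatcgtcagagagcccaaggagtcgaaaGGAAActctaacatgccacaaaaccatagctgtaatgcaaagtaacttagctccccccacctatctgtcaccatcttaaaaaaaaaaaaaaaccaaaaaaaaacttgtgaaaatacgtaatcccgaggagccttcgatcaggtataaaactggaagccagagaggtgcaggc
Tnf: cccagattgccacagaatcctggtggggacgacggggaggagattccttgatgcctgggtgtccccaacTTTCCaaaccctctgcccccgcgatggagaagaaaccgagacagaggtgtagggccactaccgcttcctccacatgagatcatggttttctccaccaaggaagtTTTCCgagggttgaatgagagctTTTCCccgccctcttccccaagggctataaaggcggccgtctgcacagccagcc
Il2: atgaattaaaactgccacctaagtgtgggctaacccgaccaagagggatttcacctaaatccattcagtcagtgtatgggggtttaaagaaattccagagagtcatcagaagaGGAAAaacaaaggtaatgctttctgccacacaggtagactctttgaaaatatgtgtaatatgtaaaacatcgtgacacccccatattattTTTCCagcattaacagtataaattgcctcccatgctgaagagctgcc
Il21: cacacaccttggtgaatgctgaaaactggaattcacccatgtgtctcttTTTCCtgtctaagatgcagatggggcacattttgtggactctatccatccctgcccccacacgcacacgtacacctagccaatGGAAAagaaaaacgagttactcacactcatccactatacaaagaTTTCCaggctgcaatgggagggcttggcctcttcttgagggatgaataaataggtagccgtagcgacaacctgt
The core occurred once in the Ifng window, 3 times in Tnf, 2 times in Il2, 3 times in Il21, 2 times in Lta, once in Ltb, and not in the windows of Il4, Il17a and Tgfb1. RefSeq held 2 entries for Il4, and only the window of the first listed was searched, so the result covers that window alone. Of all 27025 windows of this length 55.6% held it, so a match sets no gene apart. On either strand, the AP-1 letters TGANTCA, present in 6.87% of windows, were found in Il17a, and the NF-κB motif, present in 1.4% and overlapping the NFAT core, was found in Ltb. Tnf, Lta and Ltb are neighbours on chromosome 17, with starts of Tnf and Lta 3.34 kb apart and of Tnf and Ltb 7.5 kb apart, and Il2 and Il21 lie 107 kb apart on chromosome 3. The build behind the matrices is not given in the sources used here.

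Depth and identity set limits on these measurements. T cells had medians of 3852 to 6440.5 UMIs per library, with the fewest in the PPCA library of day 4. Shares are therefore given as the percent of cells with at least 1 UMI of a gene after each cell was thinned to 2000 UMIs. Because free RNA can place a UMI in a cell that does not express the gene, each share was set beside that of 24475 naive-like T cells with Ccr7 and without Cd44, S100a4, Nkg7 and Ccl5, whose median depth was 3844 to 6105 UMIs per library, against 3851 to 6149 for CD4-gated, 4272 to 7224 for CD8-gated and 3157 to 5205 for Foxp3-positive cells. These naive-like cells overlap both gates. Summed markers of other cells came to 4.76 to 8.90 CPM (the UMIs of a gene scaled to the same total in every library) for B cells, 21.8 to 50.6 for NK cells, 120.5 to 153.8 for myeloid cells, 0.765 to 3.80 for innate lymphoid cells, 8.71 to 117 for acinar cells, 57.7 to 96.1 for endothelial cells (nearly all from 1 of 2 genes), 4.78 to 8.87 for gamma-delta T cells and at most 1.29 for beta cells and 0.378 for fibroblasts, against 5360 to 7248 CPM for T cells. Neither gate held 21.7% to 35.1% of the T cells of a library, which had both or neither kind of co-receptor UMI. Pairs of libraries shared 14 to 41 barcodes. Contrary to the label, 4 libraries (vehicle of days 2 and 3, PPCA of days 3 and 4) carried Y-linked transcripts at 186 CPM or more, against at most 0.17 CPM in the other 4. Comparisons of treatment were therefore also fitted with this split as a factor.

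Ifng, which encodes interferon-γ, the main cytokine of type 1 helper and cytotoxic cells, was found in more CD8-gated than CD4-gated cells in every library. Its share in CD8-gated cells was lowest in the active library at 2.59%, had a median of 6.61% and was highest in the PPCA library of day 4 at 17.4%. Without thinning these 2 libraries stood at 5.32% and 21.6%. The lowest was then the PPCA library of day 3 at 4.60% and the highest the onset library at 21.9%. In CD4-gated cells the lowest, median and highest shares were 0.496%, 1.16% and 6.36%. The lowest was the active library and the highest the PPCA library of day 4, also without thinning (0.953% and 8.47%). The ranges of the gates overlapped, but within each library the CD8 share was higher. Naive-like cells had an Ifng UMI in 0.041% to 1.38% of cells, and the exact 95% intervals of both gates lay above theirs in 8 of 8 libraries. For CD4-gated cells this count depended on how naive-like cells were defined, being 7 with at least 2 Ccr7 UMIs, 6 with no Ccr7 rule and 2 by Ccr7 alone, while for CD8-gated cells it was 8 under each. The mean difference of CD4-gated minus CD8-gated shares was -6.18 ± 4.41 percentage points (SD, n = 8 libraries, exact two-sided sign-flip p = 0.0078, the smallest that 8 pairs allow). All 10 members were tested in this way, and share tests are given with unadjusted p. Summed UMIs gave -2.34 as the log2 fold change (SE 0.19, adjusted p = 5.88e-08 by edgeR's quasi-likelihood test).

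The concentration of Ifng transcripts in single cells varied between libraries. Of the Ifng UMIs of CD8-gated cells, those in cells with 5 or more made up 65.2% and 56.5% in the day 4 libraries after PPCA and vehicle and 51.3% at onset, against 16.7% to 40.6% in the other 5. A positive CD8-gated cell held 1.77 to 4.04 Ifng UMIs on average, most in the PPCA library of day 4. The largest single value was 51 UMIs in 1 CD8-gated cell of the vehicle library of day 3.

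Tnf, the gene of tumour necrosis factor, a rapid inflammatory cytokine of both lineages, was also found in more CD8-gated cells, by a smaller margin. Its share ran from 4.19% to 8.93% with a median of 7.14% in CD8-gated cells, and from 2.75% to 6.91% with a median of 5.00% in CD4-gated cells. The CD8 share was the higher in 7 of 8 libraries and the exception was the vehicle library of day 3. The mean difference was -1.67 ± 1.54 percentage points (exact sign-flip p = 0.0156, n = 8) and the log2 fold change was -0.34 (SE 0.09, adjusted p = 0.00429 by edgeR). Naive-like cells already had Tnf UMIs in 2.64% to 6.37% of cells. Their intervals lay apart from CD8-gated cells in 6 of 8 libraries and from CD4-gated cells in 0 of 8. The CD4 share was nevertheless the higher in 7 of 8 libraries, with a mean of 5.02% against 4.26% in naive-like cells, so the margin over background in a single library was not detectable at this depth. Without the pairing of gates within a library the Tnf call was lost (adjusted p = 0.246 by edgeR).

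**Figure D1:**
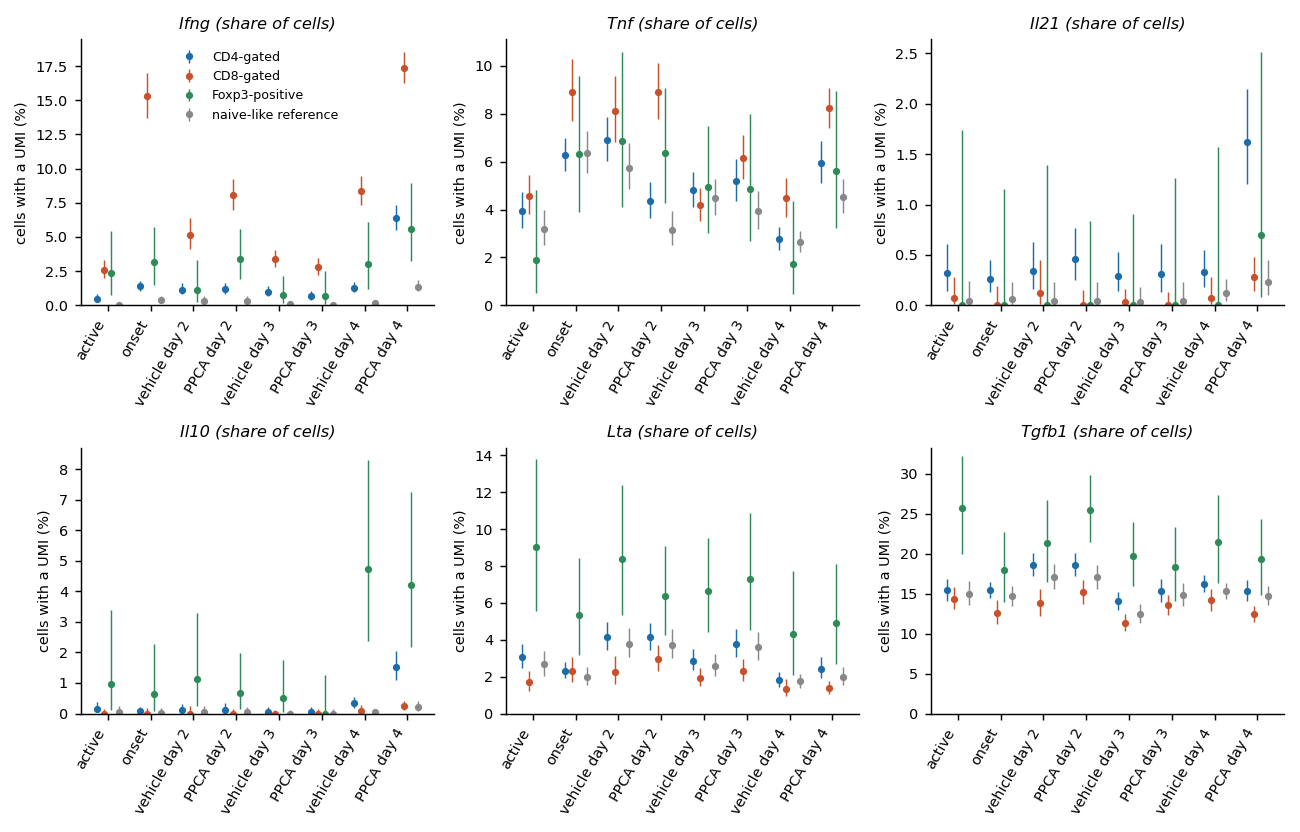
Share of cells with a UMI of 6 cytokine genes in each of 8 libraries, in percent of cells thinned to 2000 UMIs, for CD4-gated, CD8-gated, Foxp3-positive and naive-like cells. Points are single libraries and bars exact 95% binomial intervals that cover counting error only, and Ifng in CD8-gated cells ranges from 2.59% in the active library to 17.4% in the PPCA library of day 4.

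The helper cytokines were rare. Il21, Il2 and Il10 were higher in CD4-gated cells by both the share test and edgeR, Il17a by edgeR alone and Il4 by the share test alone. Il21, which supports B cells and CD8 T cells and has been linked to diabetes in this strain, was detected in 202 CD4-gated and 42 CD8-gated cells. Its CD4 share lay between 0.257% and 0.456% in 7 libraries and reached 1.62% in the PPCA library of day 4, while its CD8 share was 0 to 0.277%. The CD4 share was higher in 8 of 8 libraries (mean difference 0.417 ± 0.383 percentage points, exact sign-flip p = 0.0078), and the log2 fold change was 2.84 (SE 0.20, adjusted p = 1.31e-08 by edgeR). The interval of the CD4 share lay apart from that of naive-like cells in 2 of 8 libraries, and in 1 with at least 2 Ccr7 UMIs or no Ccr7 rule for those cells.

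Il2, the T cell growth factor, was found in 0.201% to 0.778% of CD4-gated and 0.109% to 0.359% of CD8-gated cells. Naive-like cells gave 0.131% to 0.229%, and no difference from them was detectable in CD8-gated cells, which lay above in 3 of 8 libraries and apart in 0. The CD4 share lay apart in 1 library, and in 0 with at least 2 Ccr7 UMIs or no Ccr7 rule for naive-like cells. The CD4-gated share was higher in 7 of 8 libraries (mean difference 0.189 ± 0.251 percentage points, exact sign-flip p = 0.0312), and p = 0.0625 without the vehicle library of day 2 or 4 or any PPCA library, or when 2 UMIs were required of a positive cell. Summed UMIs gave 1.30 as the log2 fold change (SE 0.25, adjusted p = 0.000406 by edgeR). The onset library alone had the higher share in CD8-gated cells, at 0.359% against 0.300%.

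Il10, an inhibitory cytokine, was seen in 125 CD4-gated and 21 CD8-gated cells. Its share in CD4-gated cells was 0.0387% to 0.142% in 6 libraries, 0.330% after vehicle on day 4 and 1.52% after PPCA on day 4. In CD8-gated cells it was 0 in 6 libraries, which with 1589 to 3413 cells allows up to 0.0879% to 0.189%, and 0.077% and 0.231% in the same pair of day 4 libraries. The log2 fold change was 2.98 (SE 0.30, adjusted p = 6.95e-07 by edgeR), and the CD4 share was higher in 8 of 8 libraries (exact sign-flip p = 0.0078, and 0.0625 when 2 UMIs were required). The interval of the CD4 share lay apart from that of naive-like cells in the day 4 libraries of both arms and in no other.

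Il17a and Il4, the signature cytokines of type 17 and type 2 helper cells, gave few UMIs at this depth. Il17a was detected in 12 CD4-gated cells and 2 CD8-gated cells in all. Its CD4-gated UMIs numbered 27 and 13 in the day 4 libraries after vehicle and PPCA, 6 at onset, 1 in the active library and 0 in the 4 libraries of days 2 and 3. The edgeR adjusted p for CD4-gated against CD8-gated was 0.00021, a call that DESeq2 did not make (adjusted p = 0.699). Il17a passed the low-count filter only through CD4-gated cells, so the edgeR call is no support for a difference. Its share was higher in CD4-gated cells in 3 libraries and 0 in both gates in the other 5, so that the exact sign-flip p of 0.25 is the smallest these values allow. Il4 was detected in 20 CD4-gated and 4 CD8-gated cells, at most 7 UMIs in a library. Its share was higher in CD4-gated cells in 6 of 8 libraries and lower in 0 (exact sign-flip p = 0.0312, 0.0625 without any 1 of 6 libraries or with thinning to 1000 UMIs, and 0.5 when 2 UMIs were required), and its summed UMIs did not pass the low-count filter.

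Lta, Ltb and Tgfb1 were also found in naive-like cells, in 1.74% to 3.78%, 71.5% to 88.5% and 12.5% to 17.1% of cells. Lta, which encodes lymphotoxin α, was present in 1.81% to 4.15% of CD4-gated and 1.35% to 2.94% of CD8-gated cells, and was higher in the CD4 gate in 8 of 8 libraries (mean difference 1.05 ± 0.594 percentage points, exact sign-flip p = 0.0078). Its log2 fold change was 0.67 (SE 0.07, adjusted p = 9.06e-07 by edgeR). Tgfb1, whose product TGF-β1 restrains effector cells and guides regulatory cells, was present in 14.0% to 18.6% of CD4-gated and 11.4% to 15.2% of CD8-gated cells, again higher in 8 of 8 libraries (exact sign-flip p = 0.0078, and 0.0625 when 2 UMIs were required, log2 fold change 0.25, SE 0.03, adjusted p = 1.71e-06 by edgeR). Ltb, which encodes the membrane partner of lymphotoxin α and shapes lymphoid tissue, was in 71.8% to 87.4% and 70.6% to 85.9% of cells. Its log2 fold change of 0.01 (SE 0.02, adjusted p = 0.869 by edgeR) left no detectable difference between gates. None of the 3 genes had an interval above that of naive-like cells in CD4-gated or CD8-gated cells of any library, and Tgfb1 in CD8-gated cells of the PPCA library of day 4 lay below it.

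In the comparison of gates 6 of the 10 members were called higher in CD4-gated cells, where 22.3% of 12626 tested genes were called higher, and 2 were called lower, against 23% of genes. Il4 was not tested, and Il17a, among the 6, passed the low-count filter only through CD4-gated cells. Genes around these cytokines split by gate as well. Of 17 transcription factors known to direct cytokine genes 8 were higher and 4 lower in CD4-gated cells. Zbtb7b, the factor of the CD4 lineage, had a log2 fold change of 3.59 and Maf, an activator of Il10 and Il21, of 2.66. Lower were Eomes at -3.78 and Runx3 at -1.76, both factors of the CD8 lineage, and Stat4, which carries interleukin-12 signals, at -0.62. The median over these factors was 0.18, against 0.00 over all genes.

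Receptors and response genes were measured in the same fit. Of 14 tested cytokine receptors 6 were higher in CD4-gated cells, among them Ifngr2 at 0.79, and 5 were lower, among them Il2rb at -1.54 and Il10rb at -0.91. Il2ra, named after its values were seen because its mean of 9.01 CPM is under the 10 CPM of the naming rule, was higher by 1.97. Among 15 genes induced by interferon-γ 11 were lower in CD4-gated cells and 1 was higher, with Gbp2 at -0.59 and Gbp3 at -0.45 against Iigp1 at 0.40, and the median was -0.23. Of 7 factors that degrade cytokine transcripts 3 were higher in CD4-gated cells, Zfp36 at 0.47, Zfp36l1 at 0.30 and Zfp36l2 at 0.24. Other ligands followed the gates, with Cd40lg, the helper signal to B cells, at 4.03 and the death ligands Tnfsf10 and Fasl at -0.99 and -0.83 on the log2 scale.

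**Figure D2:**
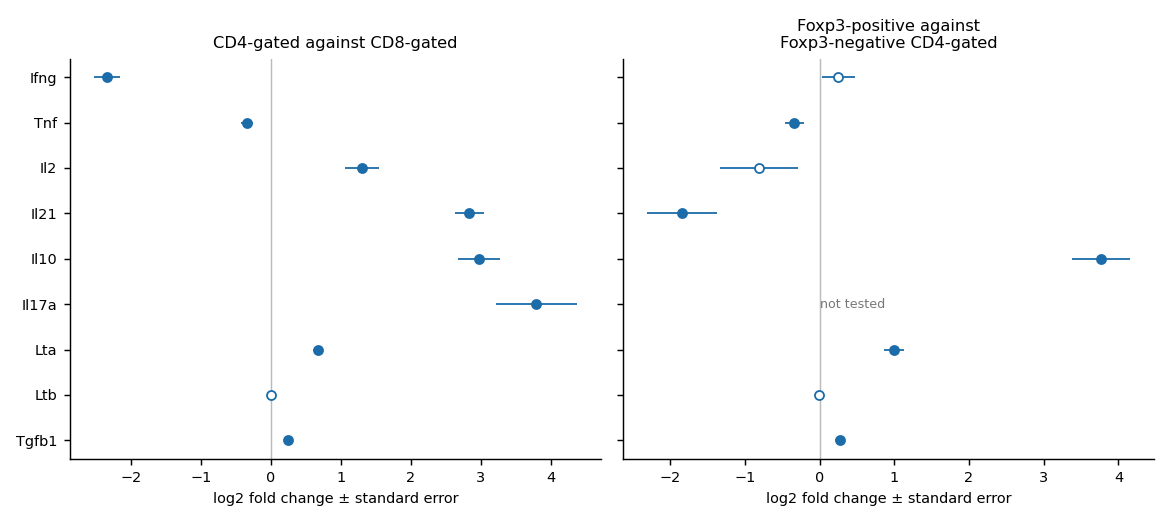
Log2 fold changes of the cytokine genes with standard errors from edgeR fits over 8 libraries, for CD4-gated against CD8-gated cells (left) and Foxp3-positive against Foxp3-negative CD4-gated cells (right). Filled points passed an adjusted p of 0.05 and open points did not, with Ifng at -2.34 and Il10 at 2.98 on the left and Il10 at 3.77 and Il21 at -1.84 on the right.

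Within the CD4 gate, Foxp3-positive cells carried more Il10, Lta and Tgfb1 than Foxp3-negative cells, while Il21 was called lower by summed UMIs. Foxp3 marks regulatory T cells, and 1119 such cells lay in the CD4 gate, between 35.6% and 54.2% of the Foxp3-positive cells of a library. Il10, a product of regulatory T cells, had a share of 0 to 8.08% in them, with a median of 1.03%, against 0.030% to 1.33% in Foxp3-negative cells. The mean difference was 2.24 ± 2.83 percentage points (higher in 7 of 8 libraries, exact sign-flip p = 0.0156, and 0.0625 with thinning to 1000 UMIs or when 2 UMIs were required) and the log2 fold change was 3.77 (SE 0.39, adjusted p = 1.62e-11 by edgeR). The exception was the PPCA library of day 3, with no Il10-positive cell after thinning. Over all Foxp3-positive cells the day 4 libraries stood apart, at 4.72% (exact 95% interval 2.38 to 8.29) after vehicle and 4.21% (2.19 to 7.24) after PPCA, against 0 to 1.14% in the other 6.

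Lta was found in 5.05% to 11.8% of Foxp3-positive and 1.73% to 3.92% of Foxp3-negative CD4-gated cells, so the ranges did not overlap. The difference was 4.80 ± 1.93 percentage points (8 of 8 libraries, exact sign-flip p = 0.0078, and 0.0625 when 2 UMIs were required) and the log2 fold change 1.00 (SE 0.13, adjusted p = 1.83e-08 by edgeR). Tgfb1 was found in 15.8% to 26.3% against 13.6% to 18.4% (difference 6.42 ± 3.11 percentage points, 8 of 8 libraries, exact sign-flip p = 0.0078), with 0.27 as the log2 fold change (SE 0.07, adjusted p = 0.00133 by edgeR). Il21 was called lower in Foxp3-positive CD4-gated cells, with -1.84 as the log2 fold change (SE 0.47, adjusted p = 0.00161 by edgeR, 0.197 without the pairing). The call rests on 9 UMIs in 3 Foxp3-positive cells. After thinning it was found in none of the 99 to 190 such cells of 7 libraries, which allows a share of up to 1.58% to 3.03%, above the 0.265% to 0.486% of their Foxp3-negative cells. The mean difference of shares was -0.269 ± 0.221 percentage points (lower in 7 of 8 libraries, exact sign-flip p = 0.0156, and 0.406 with thinning to 1000 UMIs). A share of 0 in so few cells can also arise at equal shares, so this test does not show a lower Il21 share. In the PPCA library of day 4 its share was the higher in Foxp3-positive cells, at 1.87% (2 cells) against 1.61%, whereas its summed UMIs were the lower there, at 14.9 against 18.6 CPM.

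The other tested members were Tnf, Ifng, Il2 and Ltb, of which edgeR called Tnf alone. Tnf stood at -0.34 in log2 fold change (SE 0.12, adjusted p = 0.0312 by edgeR), a call lost with DESeq2 size factors (adjusted p = 0.0727), with limma-voom (0.079), with DESeq2 (0.0979), without the pairing (0.366), and without the PPCA library of day 3 (0.0933), the vehicle library of day 4 (0.0734) or the PPCA library of day 4 (0.0732). Its share was higher in 4 libraries and lower in 4. Ifng stood at 0.25 in log2 fold change (SE 0.22, adjusted p = 0.449 by edgeR), Il2 at -0.81 (SE 0.52, adjusted p = 0.253) and Ltb at 0.00 (SE 0.04, adjusted p = 0.966). Over all Foxp3-positive cells the Ifng share lay apart from that of naive-like cells in 5 of 8 libraries, and over the 8 it ran from 0.692% in the PPCA library of day 3 to 5.61% in that of day 4.

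Of the 10 members 3 were higher in Foxp3-positive cells, where 14% of 12165 genes were called higher, and 2 were lower, against 16.5%. Il4 and Il17a were not tested. Of 17 transcription factors 13 were higher, Foxp3 itself being the gate, among them Ikzf2, a regulatory T cell factor, at a log2 fold change of 4.35 and Maf at 2.57, and Runx3 was lower at -0.76. Receptors included Il2ra at 4.67, Il2rb at 2.97 and Tnfrsf1b at 2.10, through which interleukin-2 and TNF act, while Tgfbr2 was lower at -0.91. Interferon-γ response genes were higher for 8 of 15 and lower for 0, with Gbp3 at 2.29 and Gbp5 at 1.42. Other ligands higher in these cells were Areg, a repair factor, at 4.98, Csf1, a macrophage growth factor, at 3.50 and Tnfsf11 at 1.95, and Cd40lg was lower at -1.09.

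The cytokines were then compared within cells. After thinning, 6.54% to 15.3% of CD4-gated cells, 8.25% to 23.3% of CD8-gated cells and 12.4% to 19.7% of Foxp3-positive cells of a library had a UMI of at least 1 of the 8 members other than Ltb and Tgfb1. At least 2 were found together in 0.264% to 3.04% of CD4-gated and 0.733% to 4.21% of CD8-gated cells. The highest CD4 and CD8 shares of each measure were in the PPCA library of day 4, except that CD8-gated cells with at least 2 were at 4.21% at onset and 4.18% in that library.

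Within CD8-gated cells of every library, a Tnf UMI was found in a larger share of cells with Ifng than of cells without it. In CD8-gated cells the Tnf share among Ifng-positive cells was 22.4% in the active library, 22.5% at onset, 28.1%, 17.4% and 13.8% after vehicle on days 2, 3 and 4, and 27.5%, 36.4% and 21.2% after PPCA. Among Ifng-negative cells of the same libraries it was 3.61% to 7.27%, so the ranges did not overlap. The mean difference was 18.3 ± 6.25 percentage points (8 of 8 libraries, exact sign-flip p = 0.0078, 0.141 after adjustment over 18 tests of pairs). In CD4-gated cells of the 6 libraries with at least 20 Ifng-positive cells in hand the shares were 14.6% against 4.95% (6 of 6 libraries, exact sign-flip p = 0.0312, adjusted p = 0.281). The difference was smallest in the vehicle library of day 4, at 3.39% against 2.75% from 2 of 59 cells.

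Among CD4-gated cells, those with Ifng had the higher Il21 and Il10 shares in 5 of 6 libraries, from few cells. Il21 was found in 7 of 65 Ifng-positive cells at onset, 21 of 188 in the PPCA library of day 4, 5 of 36 in that of day 2, 4 of 59, 2 of 34 and 0 of 35 in the vehicle libraries of days 4, 2 and 3. The mean share was 8.08% against 0.365% in Ifng-negative cells (higher in 5 of 6 libraries, exact sign-flip p = 0.0625, adjusted p = 0.281). Il10 was in 3.53% against 0.273% (5 of 6 libraries, same p). No pair passed the adjusted threshold after thinning. With 18 tests, 1 pair alone at the smallest exact p of 8 libraries, 0.0078, adjusts to 0.141. This failure to pass therefore does not show that the cytokines were found independently of each other.

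**Figure D3:**
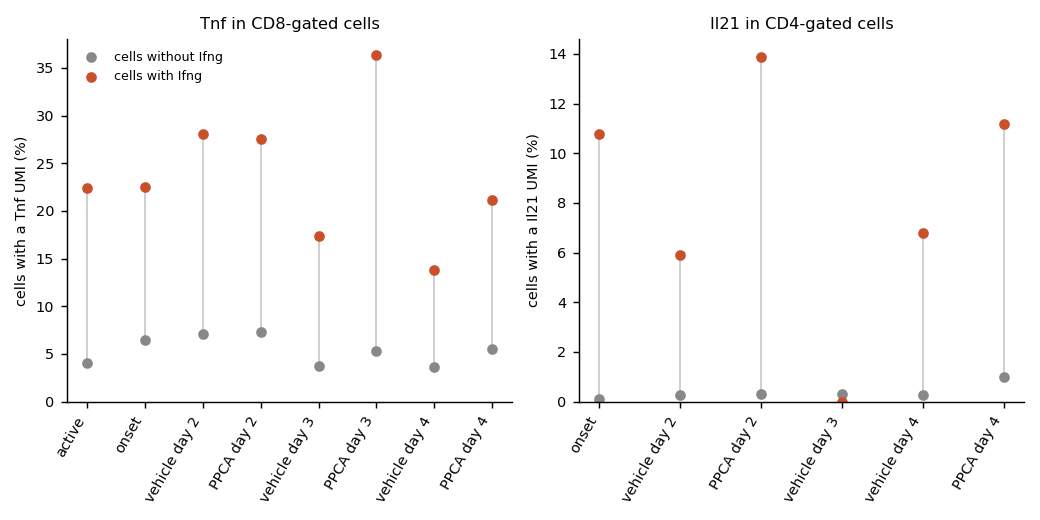
Percent of thinned cells with a Tnf UMI among CD8-gated cells (left) and with an Il21 UMI among CD4-gated cells (right), in cells with and without an Ifng UMI, 1 pair of points per library. In CD8-gated cells the Ifng-positive point lies above the other in 8 of 8 libraries, and libraries with fewer than 20 Ifng-positive CD4-gated cells are left out on the right.

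A fit across all genes, added after seeing the data, compared summed UMIs of Ifng-positive and Ifng-negative thinned cells of each library. Ifng itself defines the groups and is not counted. In CD8-gated cells, Tnf was higher in the Ifng-positive cells by 2.06 on the log2 scale (SE 0.11, adjusted p = 9.71e-35 by edgeR), with TMM-scaled values of 94.7 to 227 CPM against 24.2 to 48.5 CPM that did not overlap. Il21 was higher by 3.74 (SE 0.74, adjusted p = 1.55e-05 by edgeR, 0.153 with DESeq2), and it was not tested without the PPCA library of day 4, where 10 of 751 Ifng-positive cells held it. It thus passed the low-count filter through the group where it is high, and its call is no support for a difference. Ltb had a log2 fold change of -0.14 (adjusted p = 0.0372 by edgeR), a call lost with DESeq2 size factors (0.125), with DESeq2 (0.232), and without the active library (0.116) or the PPCA libraries of day 2 (0.0747), day 3 (0.0567) or day 4 (0.206). Lta at 0.19 and Tgfb1 at 0.06 did not pass.

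The same comparison was made in CD4-gated cells. Il21 was higher by 4.46 (SE 0.33, adjusted p = 3.95e-39 by edgeR), Il10 by 3.21 (SE 0.50, adjusted p = 5.85e-09), Il2 by 2.20 (SE 0.57, adjusted p = 0.00166) and Tnf by 1.36 (SE 0.23, adjusted p = 4.83e-08). The Il2 call was lost without the PPCA library of day 4 (adjusted p = 0.0904 by edgeR). Ltb had a log2 fold change of -0.37 (adjusted p = 0.00496 by edgeR) where the median of all genes was -0.17, and with DESeq2 size factors it was -0.16 (adjusted p = 0.245). Lta at 0.66 and Tgfb1 at -0.05 did not pass.

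In CD8-gated cells 2 members other than Ifng were called higher, against 14.7% of 10525 genes, and 1 was called lower, against 16.8%. The 2 include Il21, which was tested only through the PPCA library of day 4. In CD4-gated cells 4 were called higher, against 5.88% of 10486 genes, and 1 lower, against 9.08%. Il4 and Il17a were tested in neither gate, and Il2 and Il10 were not tested in CD8-gated cells. The transcription factors of cytokine genes were higher in Ifng-positive cells for 14 of 16 in the CD8 gate and 12 of 16 in the CD4 gate, and lower for 0 in both. Tbx21, the T-bet gene that drives Ifng, was higher by 2.27 in CD8-gated and 3.40 in CD4-gated cells, Eomes by 1.86 and 2.87, Prdm1 by 2.79 in CD8-gated and Maf by 2.81 in CD4-gated cells.

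Other ligands and receptors also differed. Csf1 was higher in Ifng-positive cells by 3.21 in the CD8 gate and 2.53 in the CD4 gate, the death ligands Fasl and Tnfsf10 by 2.99 and 2.09 in the CD8 gate, and Tnfsf11 and Tnfsf8 by 2.82 and 2.58 in the CD4 gate. In the CD8 gate Tnfsf8 was lower, at -0.58 (adjusted p = 0.0114 by edgeR). Ifngr2, a chain of the receptor for interferon-γ, was lower, at -4.09 in Ifng-positive CD8-gated and -2.25 in CD4-gated cells on the log2 scale. Il4ra was lower at -0.86 and -1.72, and Il10ra was higher at 2.44 and 1.49. Interferon-γ response genes were higher for 4 and lower for 4 of 15 in CD8-gated cells, with Gbp3 at 0.68 and Iigp1 at -2.37, and higher for 1, Tap1 at 0.67, in CD4-gated cells. Of 7 decay factors 3 were lower in Ifng-positive CD8-gated cells, Zfp36 at -0.55, Rc3h1 at -0.53 and Zfp36l1 at -0.27, and 1 was higher, Zfp36l2 at 0.34. In CD4-gated cells none was called lower and 1 was called higher, Zfp36l1 at 0.56.

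**Figure D4:**
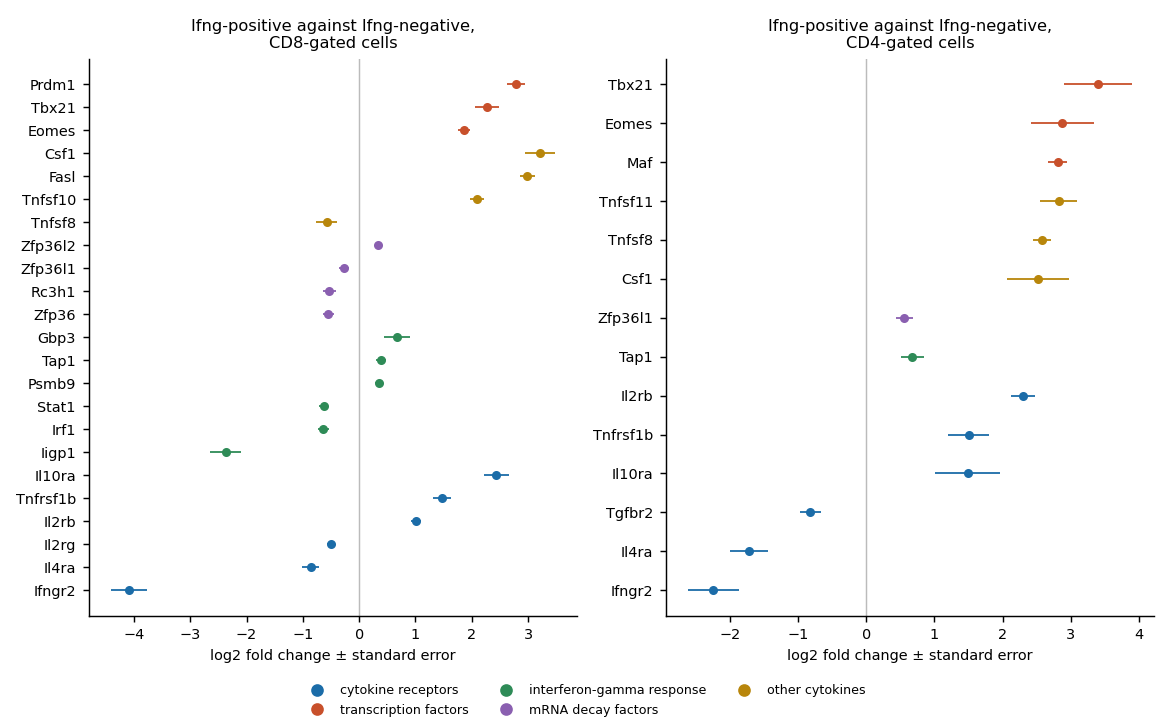
Log2 fold changes with standard errors, from edgeR fits over 8 libraries, of listed cytokine-related genes in Ifng-positive against Ifng-negative thinned cells of the CD8 gate (left) and CD4 gate (right). Shown are up to 3 genes per list and direction past an adjusted p of 0.05, and Ifngr2 lies lowest in both gates, at -4.09 and -2.25.

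The treatment question was whether PPCA changed these transcripts in pancreatic T cells. No member was called in any gate, where edgeR called 0% of 11935 genes in CD4-gated cells, 0.0167% of 11941 in CD8-gated cells and 0.0798% of 8768 in Foxp3-positive cells. Of the 10 members 9, 6 and 6 passed the low-count filter. At an unadjusted p under 0.05 the fits held 823, 956 and 603 genes, and DESeq2 called 67, 64 and 34. With 2 residual degrees of freedom, and share tests over 3 pairs that cannot go below an exact p of 0.25, a failure to pass does not show that the arms were alike. The arms also differed in Y-linked transcripts on days 2 and 4, found after vehicle on day 2 and after PPCA on day 4. Differences between arms on either of those days cannot be told apart from this split.

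The Ifng shares of CD4-gated cells were 1.16%, 1.00% and 1.30% after vehicle on days 2, 3 and 4, and 1.17%, 0.658% and 6.36% after PPCA. Only the PPCA library of day 4 stood above the rest, with an exact 95% interval of 5.51 to 7.30. Naive-like cells were also highest in that library, at 1.375% (1.015 to 1.819), against 0.160% in the vehicle library of day 4. The part of free RNA in the day 4 difference was not tested. In CD4-gated cells the log2 fold change was 0.81 (SE 0.55, adjusted p = 0.798 by edgeR), and -0.26 without day 4. In CD8-gated cells the shares were 5.16%, 3.37% and 8.36% after vehicle and 8.05%, 2.79% and 17.4% after PPCA, higher on days 2 and 4 and lower on day 3. The log2 fold change was 0.52 (SE 0.31, adjusted p = 0.738 by edgeR), and 0.03 without day 4. Foxp3-positive cells gave 1.14%, 0.739% and 3.00% against 3.41%, 0.692% and 5.61% (log2 fold change 0.66, SE 0.40, adjusted p = 0.796 by edgeR, and -0.31 without day 4).

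Il21 in CD4-gated cells was the member with the largest log2 fold change between arms, 1.43 (SE 0.27, adjusted p = 0.411 by edgeR). Its shares were 0.340%, 0.287% and 0.330% after vehicle and 0.456%, 0.310% and 1.62% after PPCA, so PPCA was higher on all 3 days, with intervals apart on day 4 alone. Naive-like cells of day 4 held Il21 in 0.120% of cells after vehicle and 0.229% after PPCA. The Il21 call was made by edgeR with the Y-linked split as a factor (adjusted p = 0.0269) and without the low-count filter (5.27e-05). The Y-linked factor leaves fewer residual degrees of freedom than the main fit. Tnf in CD8-gated cells was 8.12%, 4.19% and 4.47% after vehicle and 8.90%, 6.15% and 8.23% after PPCA, higher on all 3 days (difference 2.17 ± 1.50 percentage points, exact sign-flip p = 0.25). Its log2 fold change was 0.56 (SE 0.14, adjusted p = 0.463 by edgeR, 0.00111 with the Y-linked factor and 0.00382 without the filter).

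The Ltb share after PPCA was below that after vehicle on all 3 days in every gate, with mean differences of -4.75 ± 3.76 percentage points in CD4-gated, -4.17 ± 6.42 in CD8-gated and -1.78 ± 1.12 in Foxp3-positive cells (exact sign-flip p = 0.25 each). On day 4 the shares were 71.8% and 70.6% of CD4-gated and CD8-gated cells against 80.9% and 82.2% after vehicle, and naive-like cells of that library were also lowest, at 71.5%. The same library had the fewest UMIs per cell and a Cd3e UMI in 89.9% of T cells, against 95.6% to 98.2% in the other 7. The part of cell quality in the Ltb values was not tested. Il10 in Foxp3-positive cells was 1.14%, 0.493% and 4.72% after vehicle and 0.682%, 0 and 4.21% after PPCA, with -0.64 as the log2 fold change (SE 0.34, adjusted p = 0.756 by edgeR).

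None of the genes on the receptor, transcription factor, interferon-γ response, decay or other-ligand lists was called between PPCA and vehicle in any of the 3 gates. The median log2 fold changes, in that order of lists, were 0.09, 0.25, -0.04, -0.01 and 0.39 in CD4-gated cells and 0.03, 0.10, -0.08, -0.08 and 0.07 in CD8-gated cells, against 0.00 over all genes in each. In Foxp3-positive cells they were 0.02, -0.01, -0.06, 0.07 and 0.08, against 0.01.

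**Figure D5:**
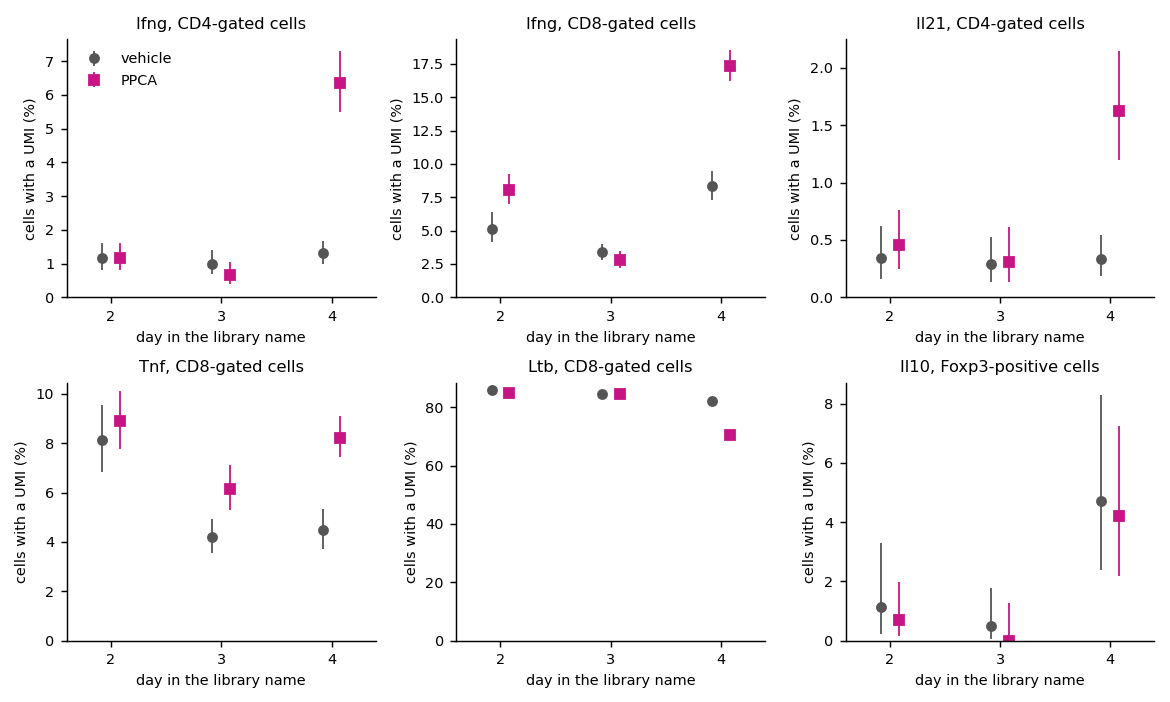
Share of thinned cells with a UMI of a cytokine gene in the vehicle and PPCA libraries of days 2, 3 and 4, 1 point per library with its exact 95% binomial interval, in percent. Ifng and Il21 in CD4-gated cells differ between arms on day 4, at 1.30% against 6.36% and 0.330% against 1.62%, while their intervals overlap on days 2 and 3. On day 4 the arms also differ in Y-linked transcripts.

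The 2 libraries of day 4, 1 of each arm, were compared with the 4 of days 2 and 3, and the members did not move alike in both arms. Il10 was high in both day 4 libraries. The Ifng and Il21 shares of CD4-gated cells after vehicle were 1.16%, 1.00% and 1.30% and 0.340%, 0.287% and 0.330% on days 2, 3 and 4, so by share only the PPCA library of day 4 stood apart for these 2. By summed UMIs Il21 was also higher in the vehicle library of day 4, at 4.78 TMM-scaled CPM against 2.37 and 1.48 on the earlier vehicle days, and at 19.5 after PPCA. Of the 10 members, 4 were higher in CD4-gated cells on day 4, where 8.5% of 11935 genes were called higher, and 1 was lower, against 5.37%. The 4 include Il17a, which was tested only through its day 4 counts. In CD8-gated cells 1 was higher, against 9.21% of 11941 genes, and 1 lower, against 7.27%. Il10 in CD4-gated cells had 4 to 12 UMIs in each library of days 2 and 3 and 92 and 127 in the vehicle and PPCA libraries of day 4 (log2 fold change 3.82, SE 0.35, adjusted p = 0.00128 by edgeR). Foxp3, the regulatory T cell factor, was lower in the same cells at -0.97 (adjusted p = 0.0241 by edgeR), and its part in the Il10 difference was not tested. Il21 in CD4-gated cells rose by 1.90 (SE 0.27, adjusted p = 0.0059 by edgeR), and its share was 1.62% in the PPCA library of day 4 and 0.330% in the vehicle library of day 4. Il17a had no UMI in CD4-gated cells of the 4 libraries of days 2 and 3. On day 4 it had 27 and 13 UMIs from 4 and 3 cells, and 1 cell after vehicle held 17. It passed the low-count filter only through the day 4 libraries, so its adjusted p (0.0107 by edgeR) is no support for a rise.

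Ifng rose on day 4 by 2.39 in CD8-gated cells (SE 0.31, adjusted p = 0.00299 by edgeR) and by 2.18 in CD4-gated cells (SE 0.54, adjusted p = 0.0381 by edgeR, 0.0537 with DESeq2, and 0.146 without day 3). Lta fell by 0.76 in CD8-gated cells (SE 0.15, adjusted p = 0.015 by edgeR, 0.0718 without day 3) and by 0.63 in CD4-gated cells (SE 0.15, adjusted p = 0.0364 by edgeR, 0.124 without day 3). Ltb, at -0.32 and -0.26, and Tnf, at -0.21 and 0.00, did not pass. The summed level of 10 early-response genes such as Fos, Jun and Egr1 was also highest on day 4, at 2412 CPM after vehicle and 3136 CPM after PPCA against 590 to 1286 CPM in the other 6 libraries, and its part in these differences was not tested. Each day has 1 library per arm, so day and the handling of that day cannot be told apart.

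Most interferon-γ response genes were lower on day 4. Of 15 tested, 9 fell and 2 rose in CD4-gated cells, and 10 fell and 2 rose in CD8-gated cells. The GTPase genes Irgm2 and Igtp fell by 1.74 and 1.48 in CD4-gated and by 1.95 and 1.59 in CD8-gated cells, while Irf1 rose by 0.71 and 0.65 and Socs1 by 0.80 and 0.55. The medians over the list were -0.56 and -0.73, against -0.01 and -0.02 over all genes. Of 7 decay factors 4 rose in both gates, with Zc3h12a, which cuts cytokine transcripts, higher by 2.07 and 2.03, Zfp36l2 by 1.52 and 1.41 and Zfp36 by 0.80 and 1.17. The others called were lower, Zc3h12d falling by 0.61 and Rc3h2 by 0.53 in CD4-gated cells and Zc3h12d by 0.59 in CD8-gated cells. Fasl rose by 1.74 and 1.11. Il16 fell by 0.94 and 1.01 and Tnfsf10 by 0.59 and 0.45, and Tnfsf8 fell by 0.57 in CD8-gated cells. Irf4, a factor induced by antigen receptor signals, rose by 1.51 in CD4-gated cells and Prdm1 by 0.89 in CD8-gated cells. Of the transcription factors 3 fell in CD4-gated cells, Foxp3 by 0.97, Zbtb7b by 0.68 and Nfatc2 by 0.49, and 1 in CD8-gated cells, Nfatc2 by 0.62. Among receptors Ifngr1 rose by 0.81 and 0.48 and Il21r fell by 0.55 and 0.39 in CD4-gated and CD8-gated cells, and Ifngr2 rose by 0.78 in CD8-gated cells.

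Active and onset diabetes were represented by 1 library each, so their values have no replicate check. Ifng in CD8-gated cells stood at 13.4 CPM (exact Poisson 95% interval 11.9 to 15.1) in the active and 122 CPM (116 to 129) in the onset library, and in CD4-gated cells at 3.46 (2.66 to 4.42) and 9.98 CPM (8.77 to 11.3). Tnf in CD8-gated cells stood at 23.1 (21.0 to 25.3) and 48.3 CPM (44.3 to 52.5). The onset library was the higher in these 3 values, with intervals apart. These intervals treat each UMI as independent, whereas the 1366 Ifng UMIs of CD8-gated cells at onset came from 431 cells. Tnf was also higher at onset in CD4-gated cells, at 36.5 against 23.2 CPM, and in naive-like cells, at 36.1 against 19.4 CPM. Tgfb1 in CD4-gated cells, at 87.9 (83.7 to 92.3) and 87.5 CPM (83.9 to 91.3), and Lta, at 14.4 (12.7 to 16.3) and 13.5 CPM (12.1 to 15.0), overlapped. In Foxp3-positive cells Ifng was 19.9 (13.0 to 29.2) and 18.3 CPM (12.3 to 26.1).

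For the 5 members above 10 CPM on average, the genes with the closest profile over 16 sums (8 libraries by CD4 and CD8 gate, sharing library and depth) were found by Pearson's r among 7268 genes, as a description. They were Tspan3 (r = 0.95), H2-D1 (0.92) and Rpa2 (0.91) for Ifng, Cdc42ep3 (0.87), Casp1 (0.85) and Tspan31 (0.84) for Tnf, and Lbh (0.93), Cd5 (0.90) and Carmil2 (0.90) for Lta. For Ltb they were Tmsb4x (0.94), Papola (0.93) and Mrps14 (0.93), and for Tgfb1 Foxp4 (0.91), Hivep1 (0.91) and Ifngr2 (0.91).

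The authors' deposited table of cluster markers lists 5 of the 10 members. In the authors' deposited table Ifng has a log2 fold change of 2.41 in the cluster named CD8 TRM TEM, with 58.5% of its cells positive, and of 0.83 in the cluster named CD4 Th17, with 20.0% positive. Tnf is listed in the authors' deposited table for CD8 TRM TEM (log2 fold change 0.91, 28.9% of cells) and Lta for CD4 Treg (0.27, 10.6% of cells). Ltb and Tgfb1 are listed there for CD4 Th0 and CD4 Treg, and Il2, Il21, Il4, Il10 and Il17a are listed for none of the 7 clusters.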

How the data were processed

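Single-cell 3′ RNA libraries were deposited as matrices of UMI counts, which the authors made with Cell Ranger (6.0.0 per the file headers, 6.1.2 per the submitters' processing notes, which also name Seurat). For the genome build, the annotation and reads shared between paralogs, the sources used here give nothing. The authors' deposited marker table gives log2 fold changes, adjusted p-values and the fraction of cells positive, quoted as percent.

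Barcodes with at least 500 genes, under 10% mitochondrial UMIs, at most 1 UMI over 6 B cell and myeloid genes and at least 2 T cell UMIs were kept, after removing Scrublet's highest-scoring 0.8% of barcodes per 1000 barcodes. The deposited 80470 barcodes held 419420275 UMIs. For shares, cells were thinned to 2000 UMIs, which left out 10 to 91 CD4-gated, 13 to 98 CD8-gated and 5 to 32 Foxp3-positive cells of a library. The naive-like reference was defined after seeing the data, in place of a definition whose values are not reported here. Intervals are exact (Clopper-Pearson or Poisson, 95%), and with the limit of 3 counts for a count of 0 they cover counting error only.

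UMI counts summed per library and gate were tested with edgeR 4.0.16 (quasi-likelihood, TMM, Benjamini-Hochberg adjustment over all tested genes, low-count filter) in R 4.3.3, with library, or day for treatment, as a block. Treatment was fitted with day because the same-day libraries deviated together from their group means, with correlations of 0.34, 0.33 and 0.51 in CD4-gated, 0.35, 0.51 and 0.52 in CD8-gated and 0.19, 0.21 and 0.39 in Foxp3-positive cells for days 2, 3 and 4. Shares were compared by two-sided exact sign-flip permutation tests over libraries. Alternatives were DESeq2 1.42.0 and its size factors, limma-voom 3.58.1, other filters, thinning depths, blocks and naive-like definitions, a Y-linked factor, and each library or day left out. Scripts in Python 3.11.15 (scanpy 1.11.5, scipy 1.17.1) and R were tested on simulated data.

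The members and gene lists were chosen with earlier results of these data known. Besides the members, up to 3 genes per list, comparison and direction are named, those with the largest change among genes past an adjusted p of 0.05 that averaged at least 10 CPM, and the 3 most correlated genes of each member at that level.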

Additional observations from a re-analysis of the deposited data

How the results depend on the processing

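Of 28 called log2 fold changes of members, 28 kept their direction under every alternative that gave a value and 17 also stayed past the threshold under those. Il10 and Il17a between the gates had 15 and 13 such alternatives, where the other members had 16, and Il21 in Ifng-positive CD8-gated cells had 11 in place of 12. Without the replicate block, members called numbered 5 in place of 8 for CD4-gated against CD8-gated cells and 3 in place of 5 for Foxp3-positive against Foxp3-negative cells, and genes called numbered 2013 in place of 5719 and 2038 in place of 3709. For PPCA against vehicle, 1 member in place of 0 was called in CD4-gated cells (Il21) and 1 in place of 0 in CD8-gated cells (Tnf), each both with no low-count filter and with the Y-linked factor. Genes called there (0, 2 and 7 in CD4-gated, CD8-gated and Foxp3-positive cells) numbered 67, 64 and 34 with DESeq2, 142, 149 and 100 with no filter, 53, 289 and 71 with the Y-linked factor and 23, 321 and 64 without day 4. The Ifng log2 fold change after PPCA ranged from -0.26 to 1.46 in CD4-gated and from -0.31 to 1.03 in Foxp3-positive cells when a day was left out. For day 4, 4 members in place of 2 were called in CD8-gated cells with no filter, and leaving out a day gave 3 to 5 in CD4-gated and 1 to 3 in CD8-gated cells. Genes called on day 4 (1655 and 1968) numbered 645 and 606 without day 3, 2576 and 3586 with the Y-linked factor, and 1086 in CD4-gated cells without day 2. For Ifng-positive CD8-gated cells, DESeq2 called 1 member in place of 3, and leaving out a library gave 1 to 3, the lowest without the PPCA library of day 4. For Ifng-positive CD4-gated cells, limma-voom called 2685 genes in place of 1569. Share tests at an exact p under 0.05 numbered 4 in place of 8 between the gates when 2 UMIs were required (Il2, Il4, Il10 and Tgfb1 lost), and 2 in place of 4 for Foxp3 with thinning to 1000 UMIs (Il21 and Il10 lost). Without thinning, 6 co-detection pairs passed in place of 0. Under 3 other definitions of naive-like cells, the libraries with a share apart from theirs numbered 2 to 7 in place of 8 for Ifng, 1 to 2 in place of 2 for Il21, 0 to 1 in place of 1 for Il2, 2 for Il10 and 0 for Tnf in CD4-gated cells, 8 for Ifng and 6 to 7 in place of 6 for Tnf in CD8-gated cells, and 4 to 5 in place of 5 for Ifng in Foxp3-positive cells. The causes were not tested. Alternatives using the T cell rule alone, those on Ifng-positive cells and those on naive-like cells were chosen after seeing the data.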

Other observations

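T cells in neither gate also carried cytokine transcripts. Their Ifng share after thinning was 1.01% in the active and 2.04% in the onset library, 0.872%, 1.01% and 1.46% after vehicle on days 2, 3 and 4, and 1.51%, 1.08% and 5.82% after PPCA. The PPCA library of day 4 was the highest, as in both gates. Il17a, the type 17 cytokine, had 17 and 6 UMIs in the day 4 libraries after vehicle and PPCA, 5 at onset, 1 in the PPCA library of day 3 and 0 in the other 4. In the PPCA library of day 3, 54 Il2 UMIs came from 9 of these cells.

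Cells with 3 or more of the 8 members other than Ltb and Tgfb1 numbered 13 of 2956 CD4-gated and 7 of 4326 CD8-gated thinned cells in the PPCA library of day 4. In any other library they numbered at most 5 in a gate.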
